A study of Mus musculus with 6 samples.

Results

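Microglia are the resident macrophages of the brain, and the genes described here are 35 that these cells are known to express, taken by symbol from a given list. All 35 were found once each among the 13886 genes of the deposited table of log2 CPM values (CPM, read counts scaled to the size of their library). The table holds ribosome-bound RNA from the medial amygdala (MeA) of adult Kiss1Cre+/Rpl22HA+/+ female mice. In this RiboTag model, Cre expressed from *Kiss1* puts a hemagglutinin tag on the ribosomal protein Rpl22, and ribosomes were pulled down with an antibody to the tag. All females, in both groups, were ovariectomized at 8 weeks of age, given an estradiol capsule for 4 days and then left for 7 days without it. The OVX group received nothing more, the E2 group received a second estradiol capsule, and brains were collected 5 days later. Each group had 3 libraries, and each library came from 1 pool of bilateral MeA micropunches from 4 mice. The labels give the cell type of all 6 libraries as Kiss1. Per the paper, only pulldowns from Cre-positive females were sequenced. Neither Input libraries of the whole punch nor libraries of pulldowns from Cre-negative females were therefore at hand.

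Microglia depend on the receptor Csf1r and its ligands for survival, and TGF-beta signaling together with the transcription factors PU.1, Irf8 and Sall1 keeps them in their resting state. They survey tissue with receptors for nucleotides and for the neuronal chemokine fractalkine, make most of the brain's complement C1q, and clear debris through phagocytic receptors that signal over adaptor proteins with an immunoreceptor tyrosine-based activation motif (ITAM). *Kiss1* cells of the MeA are neurons, so the list as a whole describes a cell type other than the labelled one. Some of its genes, such as *Tgfbr1* and *Sall1*, are also made by other cells, and which cells the reads came from was not tested.

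The scaled library size, rebuilt from the values on the footing that a library's minimum is a count of 0, ranged from 28076000 to 34162000 reads. The treatment label was checked first with *Kiss1*, which is known to rise with E2 in the MeA. The *Kiss1* gene model ENSMUSG00000115958 measured 2.29, 1.82 and 1.13 log2 CPM in OVX and 3.72, 3.80 and 3.45 in E2 libraries. This model rose with E2 (log2 difference 1.91, SE 0.26, adjusted p = 0.00475, limma). A second *Kiss1* model, ENSMUSG00000116158, measured -5.82 (no reads), -0.65 and 0.10 log2 CPM in OVX and 2.97, 3.18 and 2.65 in E2 libraries and did not pass the threshold (adjusted p = 0.0942, limma). All 10 genes of a neuron list were present, with a median level of 7.51 log2 CPM per kilobase of the longest transcript, against 2.97 for all 13873 genes with a known length. Without Input or Cre-negative libraries, these values do not show how far the pulldown was limited to *Kiss1* cells. The paper tested this by RT-PCR, which found *Kiss1* and *Cck* in the Input but not the pulldown of Cre-negative females. It found *Avp* in Input samples but in no pulldown. Microglia genes were not among those tested.

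The microglia genes were present at low levels relative to all genes. Before division by length, the median of their mean log2 CPM was 3.13. On the same scale, the first *Kiss1* model had means of 1.75 in OVX and 3.66 in E2 libraries, and the second -2.12 and 2.93. Without division by length, these values do not compare the level of *Kiss1* with that of the microglia genes. Per kilobase, which is the scale used here to compare levels between genes, the median of the 35 genes was 1.66 log2 CPM, with a range from -1.36 for *Dock2* to 4.03 for *C1qb*, and 30 of the 35 lay below the median of all genes. Summed over the 35 genes, CPM was between 322.1 and 408.5 in the 6 libraries, or 0.0322% to 0.0409% of each scaled library. *Csf1r* alone held 14.0% of that sum. The lowest rebuilt read count of any gene in any library was 19.0, for *Cd14*, and the highest was 2008, for *Csf1r*, so every gene was measured in every library.

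**Figure D1:**
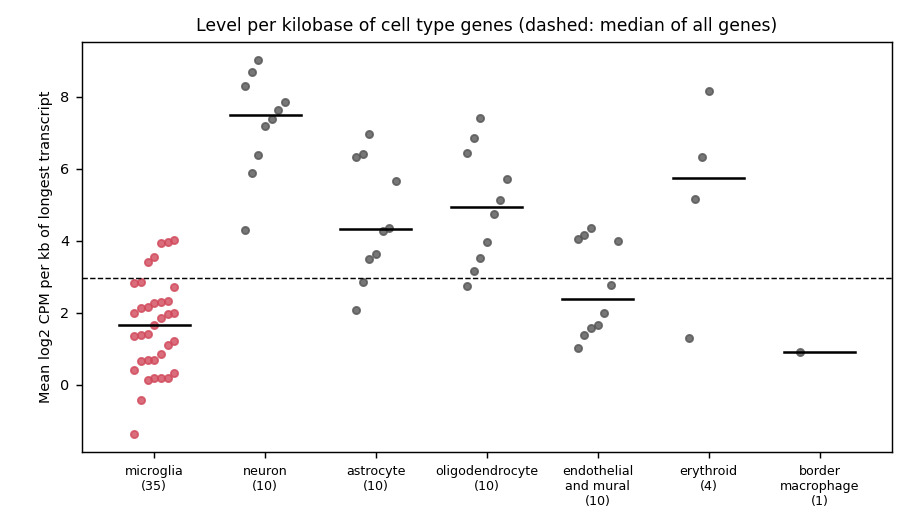
Level per kilobase of the longest transcript (mean log2 CPM of 6 libraries, 1 point per gene) for the microglia genes and for lists of genes of other cell types, with the number of listed genes in brackets, a bar at each median and a dashed line at the median of all genes (2.97). The microglia genes had a median of 1.66, against 7.51 for neuron, 4.32 for astrocyte, 4.93 for oligodendrocyte, 2.38 for endothelial and mural, 5.75 for erythroid genes and 0.91 for the 1 border macrophage gene.

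Lists of other cell types were read on the same scale. Per kilobase, the median level was 4.32 log2 CPM for 10 astrocyte genes, 4.93 for 10 oligodendrocyte genes and 2.38 for 10 endothelial and mural genes, each above that of the microglia genes. The lists differ in length and make-up, and the microglia list includes transcription factors and signaling genes of low level. These medians therefore do not rank the cell types. Of 9 genes of border macrophages, which line vessels and meninges, 1 was in the table (*Stab1*, 0.91 log2 CPM per kilobase), and *Mrc1*, *Cd163*, *Lyve1* and *Pf4* were not. Of 10 genes of blood leukocytes, 0 were in the table, among them *Ccr2*, *S100a8* and *Cd3e*. The authors kept genes past a minimum CPM, so genes left out of the table may still have had some reads.

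The genes that encode the C1q chains ranked 1, 3 and 4 among the 35 genes by level per kilobase, with *Ctss* between them. *C1qa*, *C1qb* and *C1qc* encode the A, B and C chains of C1q, which assemble in equal numbers and start the classical complement pathway, and they lie next to each other on chromosome 4 of GRCm38 (*C1qb* from 136880129 to 136886187, *C1qc* from 136889804 to 136893065 and *C1qa* from 136895917 to 136898803). *C1qb* had 4.03, *C1qa* 3.94 and *C1qc* 3.55 log2 CPM per kilobase. The level of *C1qb* relative to *C1qa* was 1.07-fold over the 6 libraries, and on the log2 scale the gap between them ran from -0.26 in OVX replicate 3 to 0.43 in OVX replicate 2. Relative to *C1qc* it was 1.39-fold, with *C1qb* the higher of the pair in all 6 libraries.

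On the log2 CPM scale, *C1qb* measured 4.03, 4.62 and 3.91 in the OVX libraries and 4.16, 4.15 and 4.04 in the E2 libraries. OVX replicate 2 was the highest of the 6 libraries and the other OVX libraries were the lowest, just below every E2 library, and the difference was -0.07 (SE 0.16, adjusted p = 0.954, limma). *C1qa* had 4.01, 4.12 and 4.11 in OVX and 4.02, 3.89 and 3.81 in E2 libraries. The highest E2 value was just above the lowest OVX value, and limma gave a difference of -0.17 (SE 0.12, adjusted p = 0.751). *C1qc* had 4.03, 3.89 and 3.61 in OVX and 3.86, 3.66 and 3.86 in E2 libraries, a difference of -0.05 (SE 0.14, adjusted p = 0.967, limma).

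*Olfml3*, which encodes a secreted olfactomedin-like protein, had the smallest p of the 35 genes. Its log2 CPM was 3.48, 3.54 and 3.27 in OVX and 2.99, 2.89 and 2.59 in E2 libraries, so that every E2 library was below every OVX library. The difference was -0.60 (SE 0.17, 95% interval -0.97 to -0.24), and its adjusted p over all genes was 0.260 with limma, which is not past the threshold of 0.05. With quantile normalization the adjusted p was 0.193, the smallest for this gene under any alternative. *Olfml3* lies on chromosome 3 and had between 195 and 396 rebuilt reads per library.

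**Figure D2:**
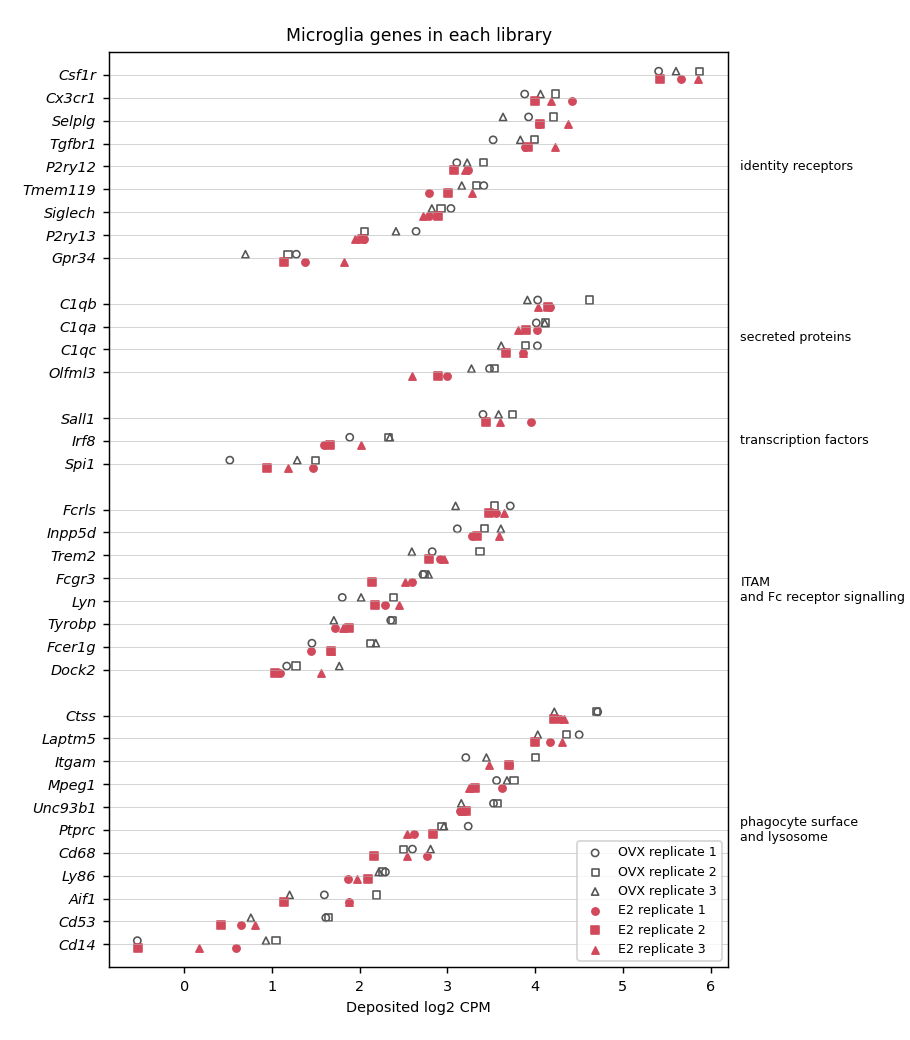
Deposited log2 CPM of the 35 microglia genes in each library, grouped by role and sorted by mean within a role. Open grey symbols are OVX and filled red symbols E2 libraries, and the symbol gives the replicate. *Olfml3*, *Fcgr3*, *Ly86* and *Ptprc* are the genes whose groups do not overlap, and for most others the colors are mixed.

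Surface receptors of resting microglia came next. *Csf1r*, the receptor on which microglial survival depends, measured 5.41, 5.88 and 5.61 in OVX and 5.66, 5.42 and 5.86 log2 CPM in E2 libraries. The groups covered the same range, the difference was 0.01 (SE 0.12, 95% interval -0.25 to 0.28) and the adjusted p was 0.990 with limma. Its exons share 873 bases with *Hmgxb3* on the opposite strand, and the library kit did not keep strand, so reads there cannot be assigned to either gene by position. *Csf1r* was also 1 of 2 of the microglia genes, beside *Fcgr3*, with rebuilt counts more than 0.02 from a whole number, as 39.5% of all genes had, which RSEM gives where reads fit more than 1 gene.

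*Selplg*, which encodes the P-selectin ligand, measured 3.92, 4.21 and 3.63 in OVX and 4.05, 4.05 and 4.38 in E2 libraries, a difference of 0.24 (SE 0.15, adjusted p = 0.743, limma). *Gpr34*, a receptor for lysophosphatidylserine, had 1.28, 1.18 and 0.70 in OVX and 1.38, 1.13 and 1.82 in E2 libraries. Its difference of 0.39 (SE 0.32, adjusted p = 0.805, limma) was the highest of the 35 genes, at 45.0 to 114.0 rebuilt reads per library, and E2 replicate 2 was below OVX replicates 1 and 2.

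The other receptors overlapped between groups too. *Cx3cr1*, the receptor for fractalkine, ranged from 3.88 to 4.23 log2 CPM in OVX and from 4.00 to 4.42 in E2 libraries (difference 0.15, SE 0.14). *P2ry12*, the ADP receptor that guides microglial processes, differed by -0.08 (SE 0.15), and its relative *P2ry13*, whose highest E2 value only just passed its lowest OVX value, by -0.36 (SE 0.23). *Tmem119*, a membrane protein used as a microglial marker, averaged 3.30 ± 0.13 log2 CPM (SD, n = 3) without E2 and 3.03 ± 0.25 (SD, n = 3) with it. *Siglech*, a sialic acid-binding lectin, differed by -0.13 (SE 0.17), and *Tgfbr1*, a TGF-beta receptor found in many cell types, by 0.23 (SE 0.15). Of these 9 receptor genes, 5 had a difference above 0 and 4 below 0, and the smallest adjusted p was 0.718 with limma.

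The ligands of these receptors were measured in the same libraries. *Il34*, a Csf1r ligand made by neurons, had 4.87 log2 CPM per kilobase, 2.76-fold the level of *Csf1r*, and *Csf1*, the other ligand, had 2.65. *Cx3cl1*, which encodes fractalkine, had 8.01, with 1.03% of all genes at a higher level, and stood at 66.2-fold the level of its receptor *Cx3cr1*. On the log2 scale, *Cx3cl1* stood 5.67 to 6.40 above *Cx3cr1* in the 6 libraries. These folds compare RNA pulled down with tagged ribosomes of *Kiss1* cells, and levels of ligand and receptor in the tissue were not measured. Between treatments *Cx3cl1* measured 9.84, 9.72 and 9.83 in OVX and 9.66, 9.68 and 9.70 log2 CPM in E2 libraries. The groups did not overlap, but with limma the difference of -0.12 (SE 0.06) reached an adjusted p of 0.584.

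Of the list of 16 ligands and partners of microglial receptors, 15 were in the table, 0 passed the threshold in either direction, 9 had a difference above 0 and the median difference was 0.02. The smallest p was that of *Itgb8*, an integrin chain that releases active TGF-beta, with 4.98, 5.02 and 4.91 in OVX and 5.62, 5.20 and 5.60 in E2 libraries (difference 0.50, SE 0.11, adjusted p = 0.0942, limma). *Itgav*, the integrin chain it pairs with, had the next, with a difference of 0.25 (SE 0.11, adjusted p = 0.537, limma). *Sirpa*, the receptor for Cd47, was the third gene of the list without overlap, after *Itgb8* and *Cx3cl1*, where 13.7% of all genes were without overlap. *Sirpa* differed by -0.13 (SE 0.06, adjusted p = 0.547, limma). *Cd200r1*, the microglial receptor for Cd200, was the gene of this list that was not in the table, while *Cd200* itself had 6.33 log2 CPM per kilobase.

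The transcription factors had the lowest levels of the groups, with a median of 0.18 log2 CPM per kilobase. *Spi1*, which encodes PU.1, the factor that macrophages need to form, had 40 to 96 rebuilt reads per library and a difference of 0.10 (SE 0.35). *Irf8*, its partner at many sites, measured 1.89, 2.33 and 2.34 in OVX and 1.60, 1.66 and 2.01 log2 CPM in E2 libraries. E2 replicate 3 overlapped OVX replicate 1, and the difference was -0.43 (SE 0.25, adjusted p = 0.694, limma). *Sall1*, which sets microglia apart from other macrophages and is also made by some other brain cells, had a difference of 0.09 (SE 0.16).

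Promoters were searched for the letters that PU.1 and IRF factors are known to bind, because these factors control much of the list. RefSeq promoter windows on GRCm38.p6 were at hand for 25 of the 35 genes, and the 250 bases before each start were read on both strands. The PU.1 core GAGGAA was found for 16 of the 25 genes (64%), against 25.9% of all 27025 genes with a window. By window, it was found in 17 of 31 windows of the microglia genes (54.8%) and in 23.3% of all 32851 windows of the same length. The longer site AGAGGAAGT was found for 0 of the 25 genes and for 0.94% of all genes. The IRF element (GAAA and again GAAA after any 2 bases) was found for 2 of the 25 genes (8%), *Ctss* and *Aif1*, and for 3.46% of all genes, and the estrogen response element (GGTCA and TGACC with any 3 bases between) for 0 of the 25 and for 0.0666% of all genes. The stretches below are the 100 bases before the start of 7 genes whose stretch holds a match and no annotated exon, 5′ to 3′ on the strand of the gene, with the match in capitals (TTCCTC is GAGGAA read on the other strand, and in *Ctss* the match is the IRF element).
C1qb, chr4:136886201-136886300, minus strand: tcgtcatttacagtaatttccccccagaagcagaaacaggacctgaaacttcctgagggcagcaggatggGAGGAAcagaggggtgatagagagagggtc
Ctss, chr3:95526686-95526785, plus strand: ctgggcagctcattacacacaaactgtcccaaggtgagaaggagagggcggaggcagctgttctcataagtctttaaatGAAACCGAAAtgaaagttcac
P2ry13, chr3:59210883-59210982, minus strand: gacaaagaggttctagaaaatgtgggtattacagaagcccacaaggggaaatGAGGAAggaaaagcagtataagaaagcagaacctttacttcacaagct
Cd53, chr3:106790150-106790249, minus strand: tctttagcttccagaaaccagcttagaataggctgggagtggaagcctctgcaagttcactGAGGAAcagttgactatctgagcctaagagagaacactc
Trem2, chr17:48346301-48346400, plus strand: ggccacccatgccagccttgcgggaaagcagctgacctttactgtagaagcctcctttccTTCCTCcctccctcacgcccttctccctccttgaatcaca
Itgam, chr7:128062540-128062639, plus strand: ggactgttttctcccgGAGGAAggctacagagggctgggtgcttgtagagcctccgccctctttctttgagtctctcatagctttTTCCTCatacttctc
Inpp5d, chr1:87620212-87620311, plus strand: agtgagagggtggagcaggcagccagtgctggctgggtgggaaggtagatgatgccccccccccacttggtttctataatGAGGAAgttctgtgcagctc
The match in *C1qb* ended 25 bases before the start and that in *Cd53* 34, whereas *Itgam* held a pair of matches on opposite strands. A match describes the letters only.

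The genes of ITAM and Fc receptor signaling had levels from -1.36 to 2.72 log2 CPM per kilobase. *Tyrobp*, the ITAM adaptor, had 2.72, which was 4.19-fold the level of *Trem2*, a lipid-sensing receptor that signals through it and whose level was 0.65. The longest transcript, used for this scale, has 597 bases for *Tyrobp* and 4784 for *Trem2*. Before division by length the order was reversed, with a mean log2 CPM of 1.97 for *Tyrobp* and 2.91 for *Trem2*. The fold thus depends on the transcript length used. *Fcer1g*, the ITAM chain shared by Fc receptors, had 2.31 log2 CPM per kilobase. *Tyrobp* measured 2.35, 2.38 and 1.70 in OVX and 1.72, 1.87 and 1.81 log2 CPM in E2 libraries, and its difference was -0.35 (SE 0.25, adjusted p = 0.782, limma). *Trem2* differed by -0.04 (SE 0.20) and *Fcer1g* by -0.32 (SE 0.27).

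*Fcgr3*, a low-affinity receptor for IgG, had 2.72, 2.74 and 2.78 in OVX and 2.596, 2.14 and 2.51 in E2 libraries. The groups did not overlap, E2 replicate 2 lay apart from the other 5 libraries, and the difference was -0.33 (SE 0.20, adjusted p = 0.699, limma). By the same tolerance *Fcgr3* had fractional rebuilt counts in all 6 libraries, so some of its reads were shared with a similar gene and its level is uncertain. The remaining genes of this group were *Fcrls*, an Fc receptor-like scavenger receptor (difference 0.11, SE 0.17), *Inpp5d*, the lipid phosphatase that dampens ITAM signals (0.02, SE 0.17), *Lyn*, a Src family kinase, and *Dock2*, an activator of Rac (-0.17, SE 0.31). *Lyn* had 1.8005, 2.39 and 2.02 in OVX and 2.29, 2.18 and 2.45 in E2 libraries, a difference of 0.23 (SE 0.23, adjusted p = 0.855, limma).

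Of 12 further genes of this pathway, 10 were in the table, 0 passed the threshold and the median difference was -0.16. Of the 10, 7 had a difference below 0, where 48.9% of all genes did. The summed CPM of the 10 was 30.8 to 43.9 in OVX and 29.2 to 35.1 in E2 libraries. *Fcgr1*, the high-affinity IgG receptor, differed by -0.69 (SE 0.37, adjusted p = 0.651, limma) and *Fcgr2b*, the inhibitory one, by 0.60 (SE 0.43, adjusted p = 0.773, limma). Of 12 complement genes other than C1q, 8 were in the table and 0 passed the threshold, with 4 differences on each side of 0. *Itgb2*, which pairs with the product of *Itgam* to form the complement receptor, had a difference of -0.63 (SE 0.30, adjusted p = 0.600, limma), and *C4b*, a complement component also made by astrocytes, one of 0.29 (SE 0.15, adjusted p = 0.617, limma). *C3* was not in the table.

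Of the 11 genes of the phagocyte surface and lysosome, 10 had a difference below 0, where 48.9% of all genes did, and 0 passed the threshold. *Ctss*, which encodes the lysosomal protease cathepsin S, measured 4.71, 4.70 and 4.22 in OVX and 4.28, 4.22 and 4.33 log2 CPM in E2 libraries. OVX replicate 3 lay with the E2 libraries, and the difference was -0.27 (SE 0.13, adjusted p = 0.606, limma). *Laptm5*, a lysosomal membrane protein, had 4.50, 4.35 and 4.03 in OVX and 4.17, 4.00 and 4.30 in E2 libraries, a difference of -0.14 (SE 0.14, adjusted p = 0.856, limma).

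*Cd53*, a tetraspanin of leukocytes, had 1.61, 1.64 and 0.76 in OVX and 0.65, 0.42 and 0.80 in E2 libraries. Its difference of -0.71 (SE 0.36, adjusted p = 0.616, limma) was the lowest of the 35 genes, and OVX replicate 3 again lay within the range of the E2 libraries. *Ptprc*, the phosphatase CD45 found on all leukocytes, had 3.24, 2.94 and 2.96 in OVX and 2.62, 2.84 and 2.54 in E2 libraries. The groups did not overlap, and the difference was -0.38 (SE 0.18, adjusted p = 0.585, limma). *Ly86*, a partner of a Toll-like receptor homolog, had 2.29, 2.26 and 2.22 in OVX and 1.87, 2.10 and 1.96 in E2 libraries, again without overlap, and a difference of -0.28 (SE 0.21, adjusted p = 0.796, limma).

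The other genes of this group were *Mpeg1*, a pore-forming protein of macrophages (difference -0.27, SE 0.15), *Unc93b1*, which carries Toll-like receptors to endosomes (-0.24, SE 0.16), *Cd68*, a lysosomal glycoprotein (-0.14, SE 0.21), and *Aif1*, which encodes the microglial stain Iba1 (-0.03, SE 0.32). *Itgam*, the integrin CD11b, was the 1 gene above 0, with a difference of 0.07 (SE 0.19). Of its 5024 exonic bases, 3450 are shared with the gene model Gm49368 on the same strand. Its rebuilt counts were within 0.02 of a whole number in every library, and how reads were divided between these gene models was not tested. *Cd14*, the co-receptor for lipopolysaccharide, had the widest spread of the 35 genes, with values from -0.54 to 1.05 in OVX and from -0.53 to 0.59 in E2 libraries.

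**Figure D3:**
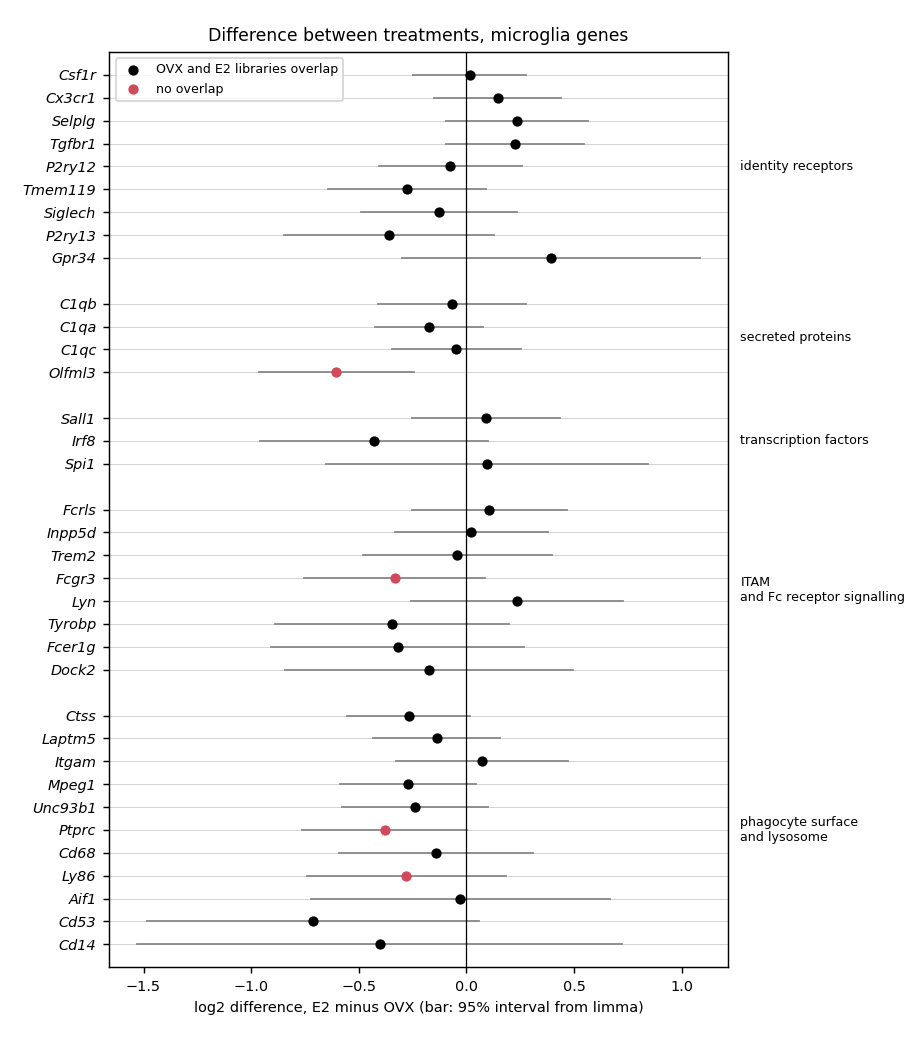
Log2 difference (E2 minus OVX) of each microglia gene with its 95% interval from limma, grouped by role, in red where the OVX and E2 libraries do not overlap. The interval of *Olfml3* (-0.97 to -0.24) was the one that left out 0.

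Between treatments, then, 0 of the 35 microglia genes passed an adjusted p of 0.05 with limma, and 0 did with voom weights, against 0.288% of all genes (0.23% higher and 0.0576% lower). At an unadjusted p under 0.05 it was 1 gene, *Olfml3* (2.86%), where 8.56% of all genes were, 4.34% lower and 4.21% higher with E2. The groups did not overlap for 4 genes (11.4%), against 13.7% of all genes, and all 4 were lower with E2, where 6.82% of all genes were lower and 6.85% higher without overlap. Of the 35 differences, 24 were below 0 (68.6%), against 48.9% of all genes, and 11 above 0 (31.4%), against 51%. Their median was -0.14, against 0.00 for all genes and 0.01 for the 8844 genes within the same range of mean log2 CPM. Because genes of 1 cell type share their cells, the 35 genes are not independent replicates of the treatment. In these pulldowns, fewer cells of a type, less RNA per cell and less of that RNA pulled down cannot be told apart. Without E2 replicate 2 the median was -0.08 with 20 genes below 0, and without OVX replicate 2 it was -0.12, also with 20.

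The precision of these differences was limited. The median SE was 0.17 for the microglia genes, against 0.11 for all genes, and the 95% interval lay within 0.5 of 0 on the log2 scale for 13 of the 35 genes and within 1 for 32. Between libraries of 1 group, the pooled SD had a median of 0.22 for the microglia genes, where the reads alone would give a median of 0.09, and it was above the counting error for 34 of the 35 genes, with *Ly86* the exception. A difference smaller than these intervals was not detectable with 3 libraries per group.

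Single libraries differed in how much of the list they held. Summed CPM of the 35 genes was 353.3, 408.5 and 339.8 in OVX and 354.2, 322.1 and 362.4 in E2 libraries. OVX replicate 2 was the highest library and E2 replicate 2 the lowest, the groups overlapped, and the mean in E2 was 0.943 of that in OVX. OVX replicate 2 held the highest value for 14 of the 35 genes and the lowest for 0, where it held the highest value for 16.2% of all genes. E2 replicate 2 held the highest value for 0 of the 35, where it held the highest for 17.4% of all genes. The lowest value was in E2 replicate 2 for 7 of the 35, where it was there for 17.0% of all genes. OVX replicates 1 and 3 held the lowest value for 9 and 8 of the 35.

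**Figure D4:**
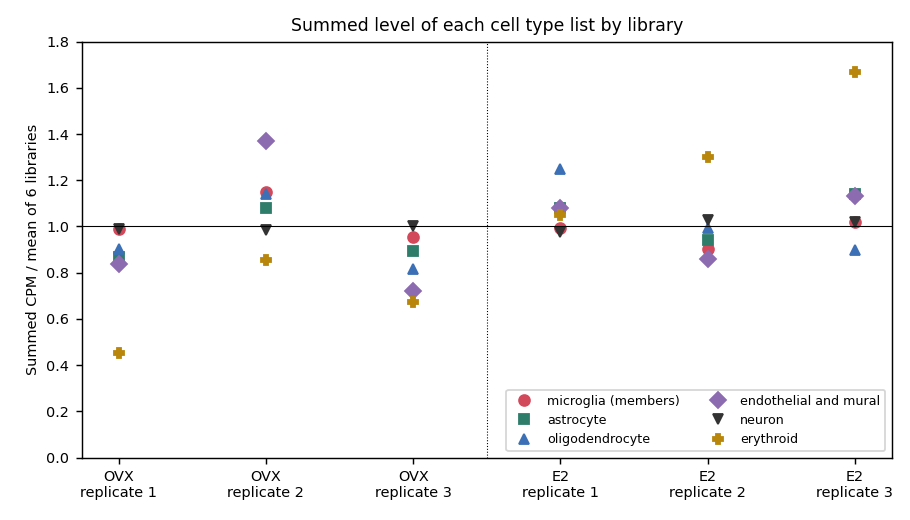
Summed CPM of each cell type list in each library, divided by the mean of the 6 libraries, with OVX on the left and E2 on the right of the dotted line. The microglia genes ran from 0.903 in E2 replicate 2 to 1.15 in OVX replicate 2, and the erythroid genes from 0.451 in OVX replicate 1 to 1.67 in E2 replicate 3.

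Other cell type lists also differed between libraries, with extremes that were not always in the same ones. OVX replicate 2 was also the highest library for the endothelial and mural list, at 1.37 of the mean of the 6 libraries. The oligodendrocyte list stood at 1.14 there but was highest in E2 replicate 1 (1.25). The astrocyte list stood at 1.08 there but was highest in E2 replicate 3 (1.14). OVX replicate 3 was lowest for the endothelial and mural (0.72) and oligodendrocyte (0.815) lists. For the astrocyte list it was OVX replicate 1 (0.867). The neuron list stayed between 0.977 and 1.03 in every library. By summed CPM, the range was 186.3 to 354.7 in OVX and 222.0 to 292.2 in E2 libraries for all 10 endothelial and mural genes, 1773 to 2202 and 1923 to 2325 for all 10 astrocyte genes, and 1672 to 2334 and 1846 to 2568 for all 10 oligodendrocyte genes. Of all genes, 51% had a difference above 0. Of the differences in these lists, 9 of 10 were above 0 for astrocyte genes (median 0.10) and 9 of 10 for oligodendrocyte genes (0.13). For endothelial and mural genes it was 7 of 10 (0.11), and 0 genes of these lists passed the threshold. The smallest p values in them belonged to *Aldoc* (difference 0.32, adjusted p = 0.117, limma) and *Gja1* (0.18, 0.512), to *Mobp* (0.32, 0.413) and *Olig1* (0.21, 0.563), and to *Ly6c1* (0.44, 0.687) and *Pecam1* (0.34, 0.753). The highest levels per kilobase were those of *Aldoc* and *Gfap* in the astrocyte list and of *Ly6c1* and *Vtn* in the endothelial and mural list. In the neuron list 5 of 10 differences were above 0, with the smallest p for *Syt1* (-0.09, adjusted p = 0.742, limma) and *Snap25* (0.08, 0.797) and the highest levels for *Eno2* and *Snap25*. *Stab1* of the border macrophage list differed by -0.19 (adjusted p = 0.816, limma).

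Erythroid genes differed most. Of 5 genes, 4 were in the table, and their summed CPM was 120.6 to 228.1 in OVX and 280.2 to 447.0 in E2 libraries. The alpha globin genes *Hba-a1* (difference 1.013, SE 0.16, adjusted p = 0.0124, limma) and *Hba-a2* (1.04, SE 0.20, adjusted p = 0.0469, limma) rose with E2. All 4 erythroid genes were higher with E2 without overlap, where 6.85% of all genes were. *Hba-a1* and *Hba-a2* are near-identical copies, so the split of reads between them is uncertain. The part of these other cell types in the differences of the microglia genes was not tested.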

How the data were processed

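Ribosome-bound RNA from 6 pooled MeA samples, 3 OVX and 3 E2, was sequenced from unstranded polyA libraries. Per the study's methods and the submitters' processing notes, the authors checked reads with FastQC 0.11.8, trimmed them with Trimmomatic 0.38, aligned them with STAR 2.6.0a to GRCm38 (mm10), and quantified protein-coding genes of Ensembl 98 with RSEM 1.3.0. The authors deposited log2 CPM values, filtered on a minimum CPM, scaled by the trimmed mean of M-values and put through voom, without the voom weights. A deposited table of the authors' own comparison, with fold changes and p-values, was not used.

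Samples were grouped by the treatment label. All 13886 genes were fitted with limma 3.58.1 in R 4.3.3 with a mean-variance trend, E2 against OVX, 2-sided, with Benjamini-Hochberg adjustment over all genes and a threshold of 0.05. The fitting steps were tested on simulated data. Pools are the replicates, so p-values measure the spread between pools of mice. Counts were rebuilt from the lowest value of a library, and lengths are those of the longest GENCODE M21 transcript. Same-numbered libraries did not deviate together (correlations -0.0213, -0.121 and -0.083), so numbers were not taken as pairs. Precision rests on the scaled library sizes, and counting errors cover counting only.

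The members and lists were chosen with earlier results of these data known. Every member is named. Given in full are the 6 with the highest level, the 3 with the largest difference in each direction and those without overlap; of other lists, genes past the threshold or otherwise the 2 with the smallest p, and for cell types the 2 with the highest level. *Tyrobp*, *Sirpa* and the values of *Cx3cl1* were added after their values were seen. Alternatives covered weights, empirical Bayes, scaling, filter, pseudocount, the replicate block and leaving out each library. Planned searches of the members' proteins were not run, and some genes that this rule would name in other lists are not reported here.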

Additional observations from a re-analysis of the deposited data

How the results depend on the processing

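With limma, 0 of the 35 microglia genes passed the threshold under any of the 16 alternatives, of which the filter on mean log2 CPM tested 33 (*Cd14* and *Cd53* were removed), and the smallest adjusted p of any was 0.193 (*Olfml3*, quantile normalization). The median difference ran from -0.183 to -0.0762 without single libraries. Of the 35 genes, 22 kept the sign of their difference under every alternative that tested them, which was 15 for *Cd14* and *Cd53*. The other 13 changed it when a library was left out, with ranges of -0.259 to 0.234 for *Aif1*, -0.205 to 0.147 for *C1qb*, -0.162 to 0.0444 for *C1qc*, -0.281 to 0.0214 for *Cd68*, -0.0971 to 0.138 for *Csf1r*, -0.34 to 0.00818 for *Dock2* and -0.0718 to 0.24 for *Fcrls*. The ranges were -0.112 to 0.137 for *Inpp5d* (-0.0103 with quantile normalization), -0.101 to 0.298 for *Itgam*, -0.146 to 0.00515 for *P2ry12*, -0.0548 to 0.202 for *Sall1*, -0.195 to 0.295 for *Spi1* and -0.21 to 0.179 for *Trem2*. The cause was not tested. Over all genes, 40 passed, against 0 without the mean-variance trend (1017 at an unadjusted p under 0.05) and between 20 (without E2 replicate 2) and 66 (without E2 replicate 3) without single libraries, with 21 without OVX replicate 1 and 26 without E2 replicate 1. The median share of genes at a higher level was 71.8% per kilobase and 75.0% without dividing by length.

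With the replicate block, 35 of all genes and 0 of the microglia genes passed and the median difference stayed at -0.139. Same-numbered libraries showed no shared deviation, which does not tell how the pools were handled. The block changed no call of a microglia gene.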

Other observations

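Lysosomal enzymes and membrane proteins are made by all cells and abundantly by microglia. All 14 genes of this list were in the table, 0 passed the threshold with limma, and the median difference was -0.07. A difference below 0 was found for 10 of the 14, against 48.9% of all genes. The groups did not overlap for 6 of the 14, among them *Psap*, *Ctsd* and *Lyz2*, and all 6 were lower with E2. Of all genes, 13.7% were without overlap and 6.82% lower without overlap. *Ctsd*, which encodes cathepsin D, had the smallest p, with 8.18, 8.19 and 8.18 log2 CPM in OVX and 8.03, 7.97 and 7.93 in E2 libraries (difference -0.21, SE 0.05, adjusted p = 0.182, limma). *Lyz2*, the lysozyme of macrophages, differed by -0.70 (SE 0.30, adjusted p = 0.532, limma).

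Of 12 genes known to rise in activated microglia, 9 were in the table, and *Cst7*, *Itgax* and *Clec7a* were not. With limma 0 passed the threshold, 7 had a difference below 0, where 48.9% of all genes did, and the median of the 9 was -0.04. *Fth1*, which encodes ferritin heavy chain and is made by all cells, differed by 0.20 (SE 0.07, adjusted p = 0.443, limma), and *Spp1*, which encodes osteopontin, by 0.96 (SE 0.39, adjusted p = 0.502, limma). Of 12 innate sensors and cytokines, 3 were in the table (*Nfkb1*, *Il18* and *Tlr7*), 0 passed the threshold, and *Nfkb1* (difference 0.11, adjusted p = 0.896, limma) and *Il18* (0.08, 0.943) had the smallest p. *Tnf*, *Il1b*, *Il6* and *Ccl2* were not in the table.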
